A study of Drosophila melanogaster with 6 samples.

Results

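Arc1 is 1 of 10844 fruit fly genes with a probe set of their own on the array, and was followed through the only probe set that the platform annotation assigns to it alone, 147195_at, of 14010 in all. Its signal was read on all 6 arrays of the study and set against 23 negative control probe sets, which target bacterial, yeast and mouse sequences, as the level of no detection. The gene was chosen by its difference between the groups on these same arrays, so its levels are described without a test. Total RNA of fly heads was hybridised to Affymetrix DrosGenome1 arrays, 3 for flies called tim-MJD here and 3 for wild type flies. The tim-MJD flies carried a Tim-gal4 driver, with the promoter of the clock gene timeless, which is active in clock neurons, photoreceptors and some glia, together with a UAS-MJD transgene for the protein of Machado-Joseph disease. The transgene of replicates 1 and 2 is labelled with 78 glutamines, and that of replicate 3 with no length. The other flies are labelled wild type, with the strain CS given for replicates 1 and 3, and no driver or transgene is named for them. Flies of both groups were 2 to 4 days old and were collected at Zeitgeber time 16, in the dark phase, after 3 days of light-dark cycles.

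Arc1 encodes a protein with a capsid domain related to the Gag proteins of gypsy-type retrotransposons. Its protein forms capsid-like shells that hold its own mRNA, and in the larva these pass from motor neurons to muscle in extracellular vesicles at the neuromuscular junction. In adults the gene is known for its part in the behavioural response to starvation and in energy metabolism, and Arc2 is its close relative next to it on the chromosome. In mammals the related gene Arc is switched on by neuronal activity and shapes synapses.

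The share of probe sets above the highest negative control ranged over arrays from 40.2% to 44.4%. The labels do not say that replicates came from separate collections of flies, so p-values measure only the spread between these samples, which may be technical. All tim-MJD arrays shared 1 scan day and all wild type arrays a different one, and an effect of the day cannot be told apart from that of the group. None of the 6 arrays is labelled as flies that carry just the driver or just the transgene. A difference in genetic background between the stocks, or an effect of an insertion, therefore cannot be told apart from that of the expressed protein either. The 3' end control of eIF-4a exceeded its 5' end control by 2.57 to 3.18 log2 units on the tim-MJD arrays, and by 3.15, 9.63 and 3.71 on wild type 1, 2 and 3. The middle 18S ribosomal RNA control read 16.8 to 17.4 on the log2 scale on the tim-MJD arrays, against 12.0 to 16.7 on the wild type arrays. All 6 measured photoreceptor markers and 4 of 6 neuron markers were above the negative controls on every array, as for heads.

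Arc1 was bright in tim-MJD heads and at control level in wild type heads. The deposited intensity was 13340, 24901 and 28934 on tim-MJD 1, 2 and 3, against 19.08, 20.03 and 21.32 on wild type 1, 2 and 3. The groups did not overlap, and each tim-MJD value was far above each wild type value. The highest negative control, the same probe set on all 6 arrays, read 32.3, 31.9 and 39.1 on the tim-MJD arrays and 29.8, 32.7 and 35.2 on the wild type arrays. On tim-MJD arrays 0 of the 23 negative controls exceeded Arc1. On wild type 1 and 2 there were 2 that did and on wild type 3 there were 4, so Arc1 was inside the range of probe sets with no fly target.

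**Figure D1:**
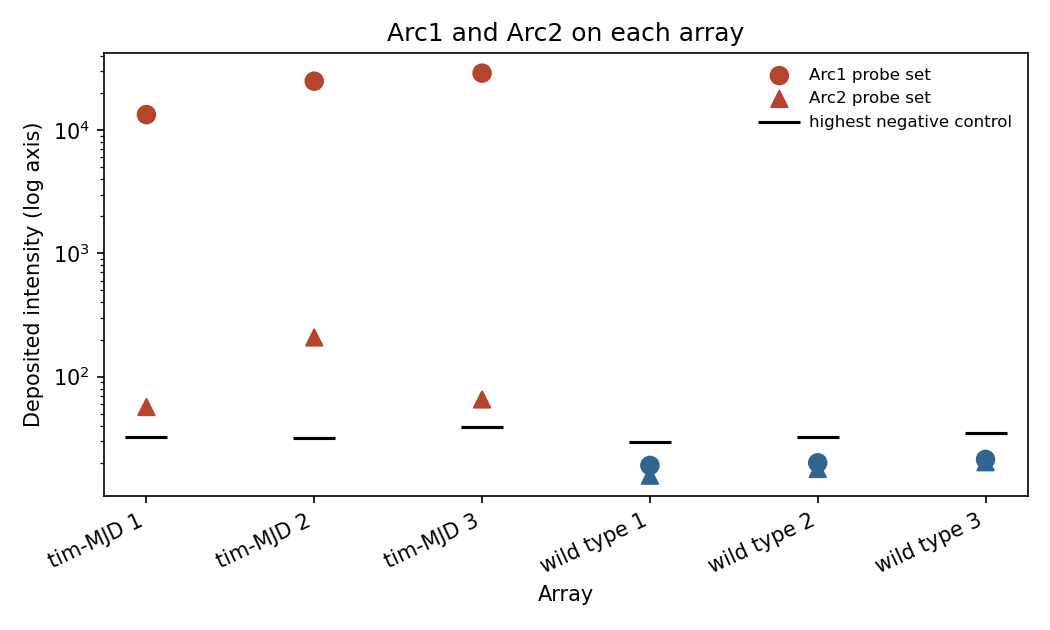
Deposited intensity on a log axis for the Arc1 probe set (circles) and the Arc2 probe set (triangles) on each tim-MJD array (red) and each wild type array (blue), with the highest of 23 negative controls of the array as a black bar. Arc1 reads 13340 to 28934 on tim-MJD arrays and 19.08 to 21.32, under the control bar, on wild type arrays, and Arc2 is above the bar on the tim-MJD arrays alone.

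After quantile normalization of log2(intensity + 16), Arc1 read 13.64, 14.51 and 14.87 on tim-MJD 1, 2 and 3, against 5.20, 5.19 and 5.17 on wild type 1, 2 and 3. The mean was 14.34 ± 0.64 in tim-MJD and 5.19 ± 0.02 in wild type (SD, n = 3 each), a difference of 9.15 on this scale. Because wild type Arc1 was not above background, the difference is better given as a bound. Measured against the highest negative control of each wild type array, Arc1 was higher by at least 8.73 log2 units in tim-MJD heads. The bound was 9.09 when the 95th percentile of the negative controls was used as the detection level. In bulk heads, more cells with Arc1 and more Arc1 RNA per cell cannot be told apart.

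The tim-MJD arrays differed among themselves in Arc1. Tim-MJD 3 read highest and tim-MJD 1 lowest, 1.24 log2 units apart, which is a ratio of 2.17 in deposited intensity. The arrays labelled with 78 glutamines read 13.64 and 14.51, and the array without a stated length read 14.87. Of the 8379 probe sets tested across the genome, 95.7% had a smaller SD between tim-MJD arrays than the 0.64 of Arc1, and the median SD was 0.13. That set includes probe sets at control level, whose SD can be small, as for the Arc1 neighbour Tfb1 at 0.05. Drs and CG15784, with changes as large as the Arc1 bound, had 0.66 and 0.37. The wild type arrays spanned 0.034 log2 units for Arc1, with wild type 2, the array with the largest gap between the ends of eIF-4a, between the others. All of these values are at control level, so they cannot show whether RNA quality mattered.

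Modules 1 and 2 of the fluidics station handled 1 tim-MJD and 1 wild type array apiece, so the difference can be read within a module. In module 1, tim-MJD 1 exceeded wild type 2 by 8.44 log2 units. In module 2, tim-MJD 2 exceeded wild type 3 by 9.35. The first was smaller and the second larger than the difference of the group means. Because the groups do not overlap, any pair of a tim-MJD and a wild type array is positive, so the sign adds no support. Arrays that shared a module still differed in scan day. The scale of the deposited intensities is not stated, and 56 to 75 values per array exceed what a 16-bit scan can hold. Had log2 summaries been raised as powers of e, the Arc1 difference would be 6.96 log2 units, which is its difference in natural logs with no constant added.

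Among all 8379 probe sets tested, 2 besides Arc1 were higher in tim-MJD heads by at least the 8.73 of the Arc1 bound, with a bound used in place of the difference wherever no wild type array was above the controls. They were Drs, the antifungal peptide drosomycin, with a difference of 9.28, and CG15784, a gene known by number, with 9.12. Unlike Arc1, both were detected in wild type heads, Drs on 3 of 3 arrays and CG15784 on 2 of 3. Of the probe sets tested, 208 (2.48%) passed an adjusted p of 0.05 in limma, 129 higher (1.54%) and 79 lower (0.943%) in tim-MJD heads. Leaving out the quantile step gave 123 higher and 144 lower.

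**Figure D2:**
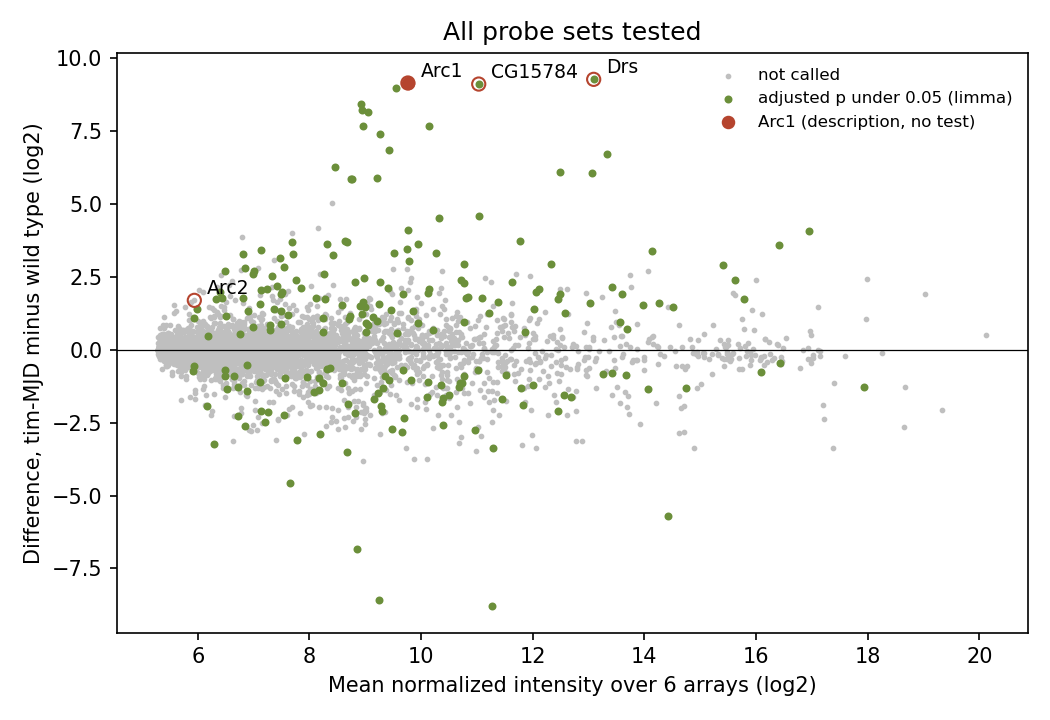
Each point is 1 of the 8379 probe sets tested, with its mean normalized intensity over the 6 arrays (log2, x axis) and its difference, tim-MJD minus wild type (log2, y axis). Green points passed an adjusted p of 0.05 in limma, grey points did not, Arc1 is filled red (difference 9.15), and Drs, CG15784 and Arc2 are circled and named.

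Arc2, the paralogue of Arc1, has its own probe set, 147197_at. It read 6.22, 7.81 and 6.33 (log2) on tim-MJD 1, 2 and 3, against 5.04, 5.10 and 5.13 on wild type 1, 2 and 3. As with Arc1, all 3 tim-MJD values were above the highest negative control and all 3 wild type values were below it. The mean was 6.79 ± 0.89 in tim-MJD and 5.09 ± 0.04 in wild type (SD, n = 3 each), a difference of 1.70 ± 0.44 (SE), and of at least 1.18 against the control level. The difference did not pass in limma over all probe sets (adjusted p = 0.137), although all 3 tim-MJD arrays were higher. Without tim-MJD 2 the difference was 1.19 and the adjusted p crossed the threshold (0.00725, limma). The probe set entered the test only through its tim-MJD values, so neither outcome is read as support.

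The paralogues did not share their order among the tim-MJD arrays. Arc1 was highest on tim-MJD 3, whereas Arc2 was highest on tim-MJD 2, 2.19 log2 units above the control level, against 0.60 and 0.64 on tim-MJD 1 and 3. Within module 1 the Arc2 difference was 1.13 and within module 2 it was 2.68, against 8.44 and 9.35 for Arc1. The genes are related in sequence, and whether probes for the one bind transcripts of the other was not tested.

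The gene neighbours of Arc1 on chromosome arm 2R were read in the order of a current gene table (assembly Release 6 plus ISO1 MT), which was used for gene order only. Directly after Arc1 comes the pseudogene CR10102, also called Arc3, which has no probe set of its own here, and then Arc2 and Tfb1, a subunit of a general transcription factor that also acts in DNA repair. Directly before it come CG8617, CG8613 and Shrm, an actin-linked regulator of cell shape. CG8617, which is adjacent to Arc1, read 6.20, 6.25 and 5.86 on tim-MJD 1, 2 and 3, against 6.05, 5.99 and 5.91 on wild type 1, 2 and 3, so the groups overlapped (difference 0.12 ± 0.12 SE, limma adjusted p = 0.732). Tfb1 was at control level on all 6 arrays, with a difference of -0.04. CG8613 differed by -0.33 (limma adjusted p = 0.470), with all tim-MJD arrays below all wild type arrays. Over all probe sets tested, 21.9% had no overlap of the groups in either direction. The brightest Shrm probe set differed by 0.19 (limma adjusted p = 0.456).

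Taken over 10 genes on each side, 11 genes had 14 probe sets, of which 10 were tested. Of the 10, 0 passed in limma, against 2.48% of all probe sets, and 2 were at an unadjusted p under 0.05, which 1311 of the 8379 probe sets (15.6%) reached. These were Arc2 and CG8547, which differed by 0.54 (limma adjusted p = 0.251), with all tim-MJD arrays above all wild type arrays. Apart from Arc2, differences lay between -0.42 and 0.54 log2 units.

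**Figure D3:**
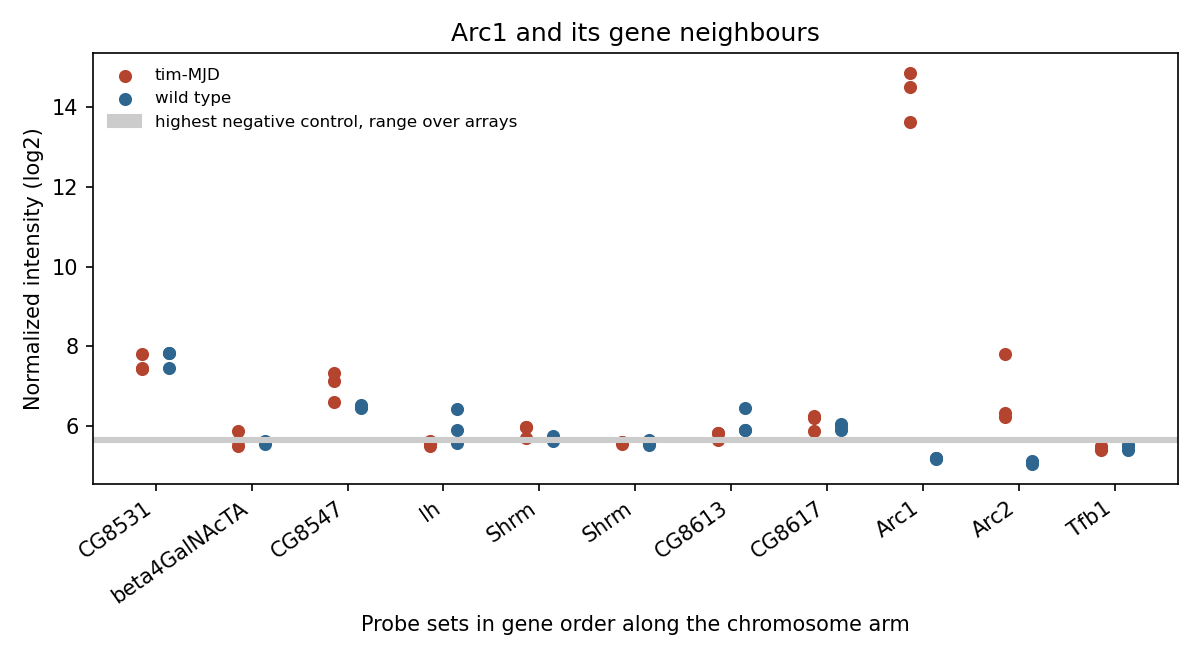
Normalized log2 intensity of the tested probe sets of Arc1 and of genes within 10 places of it, in gene order, with tim-MJD arrays in red and wild type arrays in blue, 1 point per array. The grey band is the range of the highest negative control over the 6 arrays. Arc1 stands at 13.64 to 14.87 on tim-MJD arrays, and Arc2 is the other gene with all tim-MJD points above the band and all wild type points below it.

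The on and off pattern of Arc1, above every negative control on all tim-MJD arrays and at their level on all wild type arrays, was shared by few probe sets. It was found in 36 of 13966 probe sets (0.258%), Arc1 included, and 26 of them are assigned to 1 gene. The opposite pattern, above control in wild type alone, was found in 43 (0.308%). Arc2 was among the 36. Besides the Arc genes, the 8 named genes with the largest bounds were BomS4, Cyp4p2, GstD2, Zip89B, Mec2, Appl, CG16898 and Mtmr6. BomS4, a short immune peptide of the Bomanin family, was higher by at least 7.45 log2 units, the bound nearest to that of Arc1. Cyp4p2, a cytochrome P450, had a bound of 2.63 and GstD2, a glutathione transferase, one of 2.53. Both belong to families with near relatives that may bind the same probes. Zip89B, a transporter of the zinc and iron family, had a bound of 2.23. Mec2, a membrane protein of the stomatin family, had one of 2.09 and Appl, the fly relative of the amyloid precursor protein, one of 1.82. CG16898 had a bound of 1.78 and Mtmr6, a lipid phosphatase of the myotubularin family, one of 1.70. A second probe set of Mtmr6 was above the controls on all 6 arrays and differed by 0.87, so the probe sets of this gene disagree about its detection in wild type.

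The 5 genes whose profile over the 6 arrays was most like that of Arc1 were Tsp42Ed, BomS4, Fer1HCH, Zip89B and IA-2, by Pearson correlation of normalized log2 values among the 7412 tested probe sets assigned to 1 gene. The correlations were 0.9973, 0.9967, 0.9960, 0.9959 and 0.9959. They describe 6 arrays that fall into the study's groups, so they carry mainly the gap between groups, and 102 probe sets exceeded 0.95. Only 2 of the 5 were again among the 5 most alike with the values as deposited.

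Among these genes the sizes of the differences ranged widely. Tsp42Ed, a tetraspanin membrane protein, read 12.84, 13.74 and 13.45 on tim-MJD 1, 2 and 3, against 8.88, 8.71 and 8.63 on wild type 1, 2 and 3, a difference of 4.60. It was well above the controls in wild type heads, unlike Arc1. Fer1HCH, the heavy chain of the iron store ferritin, read 15.11, 15.35 and 15.25 on tim-MJD 1, 2 and 3, against 13.83, 13.68 and 13.80 on wild type 1, 2 and 3, a difference of 1.47. IA-2, a phosphatase-like protein of dense core vesicles, read 6.45, 6.56 and 6.46 on tim-MJD 1, 2 and 3, against 5.38, 5.42 and 5.35, all at control level, on wild type 1, 2 and 3. Its difference was at least 0.88. Tsp42Ed, Fer1HCH, Zip89B and IA-2 were all highest on tim-MJD 2 and, like Arc1, lowest on tim-MJD 1 among the tim-MJD arrays. Arc1 and BomS4 were highest on tim-MJD 3.

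**Figure D4:**
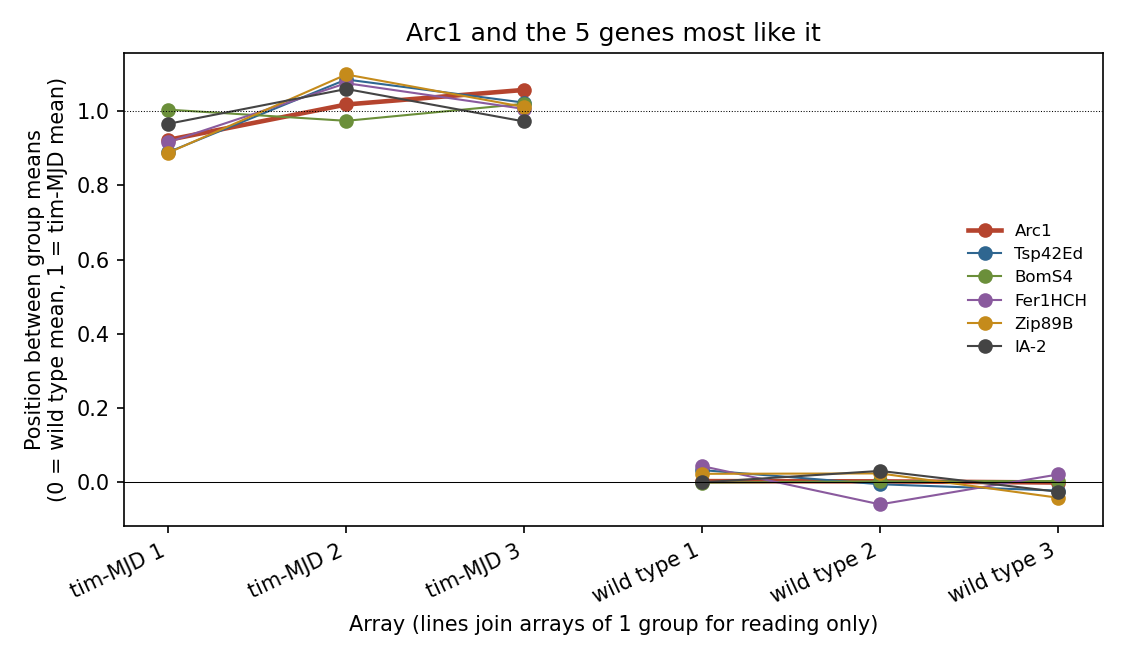
For Arc1 and the 5 genes most like it, each array's log2 value is placed between the gene's own group means, with 0 the wild type mean and 1 the tim-MJD mean. Lines join arrays of a group for reading only. All 6 genes stay near 0 on wild type arrays and near 1 on tim-MJD arrays, and their order among the tim-MJD arrays differs.

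Genes tied to known roles of Arc1 were read from 8 lists with 112 genes, of which 89 had a probe set and 76 entered the test. Of the 76, 1 passed in limma, against 2.48% of all probe sets tested, so the share called was near that background. The counts at an unadjusted p under 0.05 given for each list stand against 15.6% of all probe sets tested. The median difference over all tested probe sets was -0.0026 log2 units. Further members that are named below were picked after their values were seen.

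Other genes of retroviral descent were measured beside Arc2. Gagr, which derives from a Gag sequence, read 7.10, 6.85 and 7.26 on tim-MJD 1, 2 and 3, against 6.58, 6.79 and 6.83 on wild type 1, 2 and 3. The difference was 0.34 ± 0.13 (SE, limma adjusted p = 0.317), with no overlap of the groups. Iris, which derives from an envelope protein, read 6.88, 5.49 and 6.98 on tim-MJD 1, 2 and 3, against 8.52, 7.97 and 8.22 on wild type 1, 2 and 3. Its difference was -1.79 ± 0.44 (SE, limma adjusted p = 0.117), opposite in sign to Arc1 and Arc2, again without overlap. On tim-MJD 2 Iris was not above the controls, so the size of its difference is limited by the control level. The groups did not overlap for 21.9% of all probe sets tested. Of these 3 genes, 0 passed in limma, with 3 at an unadjusted p under 0.05, Arc2 among them.

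Genes listed as activity-regulated, most of them transcription factors tied to neuronal firing, gave no call. Of 7 measured, 5 were tested and 0 passed in limma, also none at an unadjusted p under 0.05, with a median of 0.04. Hr38, a nuclear receptor induced by firing, was at control level on all 6 arrays, with 5.46 in tim-MJD and 5.43 in wild type. sr and CrebB were also at control level on every array and were not tested. kay, the fly Fos, differed by 0.11 and Jra, the fly Jun, by 0.49.

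Of 18 measured genes of the ESCRT machinery and of extracellular vesicles, which bud and release membrane carriers, 15 were tested and 0 passed in limma, with 3 at an unadjusted p under 0.05. Of the 15, 12 were positive, with a median of 0.25. ALiX, an adaptor that links cargo to ESCRT, read 10.29, 11.31 and 10.77 on tim-MJD 1, 2 and 3, against 9.12, 8.88 and 8.24 on wild type 1, 2 and 3. It missed the threshold (2.04 ± 0.34 SE, limma adjusted p = 0.0536), with all 3 tim-MJD arrays above all wild type arrays. Chmp1, an ESCRT-III subunit, differed by 1.42 ± 0.27 (SE, limma adjusted p = 0.0682) and shrb, the ESCRT-III subunit that forms filaments, by 0.47 ± 0.11 (SE, limma adjusted p = 0.102). wls, the carrier protein of Wnt vesicles, was at control level on all arrays. With tim-MJD 1 left out, 1 gene of the list passed.

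Among 15 tested genes for RNA granules and mRNA transport, 1 rose, 0 fell and 14 did not pass in limma, with a median of -0.0098. At an unadjusted p under 0.05 there were 2, pAbp and me31B. pAbp, which binds the poly(A) tail of mRNAs, read 14.35, 14.81 and 14.51 on tim-MJD 1, 2 and 3, against 12.41, 12.54 and 13.00 on wild type 1, 2 and 3. It rose by 1.91 ± 0.20 (SE, limma adjusted p = 0.0143), with no overlap between groups and with 1.82 and 1.81 within modules 1 and 2. The call was lost without wild type 1 (adjusted p = 0.0601), wild type 2 (0.0575) or tim-MJD 3 (0.0608). me31B, a helicase of RNA granules, differed by -0.89 ± 0.23 (SE, limma adjusted p = 0.133). It was above the controls on 3 wild type arrays and 1 tim-MJD array, so the size of this difference is limited by the control level. Fmr1 and Imp, which bind and transport mRNA in neurons, were at control level on every array.

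Synaptic growth genes gave no call. Of 9 tested, 0 passed in limma, with 1 at an unadjusted p under 0.05, with a median of 0.07 and differences from -0.11 to 0.39. The median lay between 0.0066 without tim-MJD 3 and 0.16 without tim-MJD 2. The highest was futsch, a microtubule-binding protein of synaptic boutons. For JNK and tissue stress genes 0 of 9 passed in limma, also none at an unadjusted p under 0.05, with a median of 0.11. Without tim-MJD 3 their count was 1, and without wild type 3 their median was 0.31. Of 5 neuroendocrine peptide genes tested 0 passed in limma and 1, Pdf of the clock neurons, had an unadjusted p under 0.05 (-0.46, limma adjusted p = 0.111). The median of that list was -0.05 and lay between -0.23 without wild type 3 and -0.02 without tim-MJD 3.

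Genes of insulin, adipokinetic hormone and nutrient signalling were spread in both directions. Of 15 tested, 0 passed in limma, with 6 at an unadjusted p under 0.05, with a median of -0.26. ImpL2, which binds insulin-like peptides, differed by 1.17 ± 0.22 (SE, limma adjusted p = 0.0713). bmm, the fat store lipase brummer, differed by 0.43 ± 0.10 (SE, limma adjusted p = 0.112). Lower values were read for tobi, a glucosidase that responds to insulin and adipokinetic hormone signals (-2.46 ± 0.61 SE, limma adjusted p = 0.123), for Lst, the decretin limostatin (-2.18 ± 0.50 SE, limma adjusted p = 0.101), and for Pepck1, an enzyme of glucose synthesis (-1.29 ± 0.35 SE, limma adjusted p = 0.154). Hnf4 was also lower (-1.13 ± 0.29 SE, limma adjusted p = 0.131). These are the 6 genes of the list at an unadjusted p under 0.05. For each of them the groups did not overlap, as held for 21.9% of all probe sets tested. Ilp2, an insulin-like peptide of brain neurosecretory cells, read 9.99 ± 0.04 in tim-MJD and 9.88 ± 0.29 in wild type (SD, n = 3 each). The insulin list held 1 call without wild type 3 and 2 without tim-MJD 1.

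**Figure D5:**
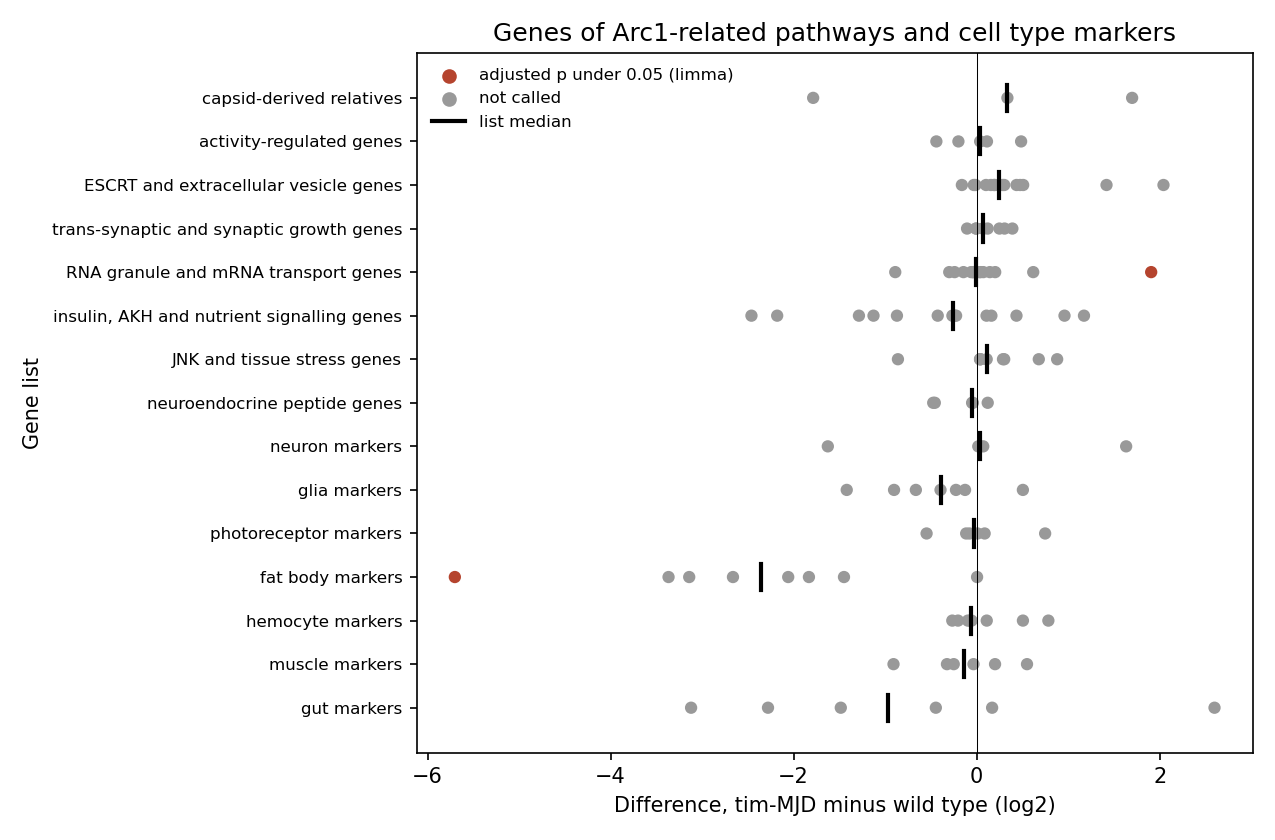
Difference between tim-MJD and wild type (log2, x axis) of each tested gene in 8 lists tied to known roles of Arc1 and 7 lists of cell type markers, 1 point per gene by its brightest probe set, with the list median as a black bar. Red points, pAbp and Obp99b, passed an adjusted p of 0.05 in limma, and the fat body markers have the lowest median at -2.36.

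Among the cell type markers the lowest list medians were those of the fat body, a tissue that stores nutrients and also lies in the head, at -2.36, of the gut at -0.97 and of glia at -0.40. For the fat body, 7 of 8 measured markers were above the controls on all 6 arrays. Their summed intensity was 44401 to 2270997 over tim-MJD arrays and 2552992 to 3839908 over wild type arrays. The yolk protein genes Yp1, Yp2 and Yp3 make up most of this sum on every array, so it is not a reading of the fat body alone. The low end is tim-MJD 2, which stood apart in its yolk protein transcripts. The sex of the flies on each array was not examined, and its part in these values was not tested. Yp1 read 20.10, 14.72 and 20.10 (log2) on tim-MJD 1, 2 and 3, against 20.50, 20.50 and 20.10 on wild type 1, 2 and 3. Yp2 and Yp3 were likewise lowest on tim-MJD 2, at 10.02 and 13.15. Of the 8 markers, 1 fell and 7 did not pass in limma. The one that fell was Obp99b, an odorant binding protein (-5.70, limma adjusted p = 0.0478), whose call was lost without wild type 1, 2 or 3 or tim-MJD 3 (adjusted p from 0.109 to 0.143). Fbp1, at control level, differed by 0.0042, and fit, Yp1 and Yp2 overlapped between the groups. The median was -0.71 without tim-MJD 2. The Arc1 difference without tim-MJD 2 was 9.06, against 9.15 with all arrays. The part of the fat body in the Arc1 result was not tested.

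Glia markers had a median of -0.40, with 0 of 7 passing in limma and 2 at an unadjusted p under 0.05, against 15.6% of all probe sets tested. The 2 were Gs2, a glutamine synthetase (-1.42 ± 0.39 SE, limma adjusted p = 0.153), and alrm, a marker of astrocyte-like glia (-0.90 ± 0.17 SE, limma adjusted p = 0.0719). Of the 7, 1 went the other way, moody (0.50 ± 0.26 SE, limma adjusted p = 0.453), with overlap of the groups. It was above the controls on 2 tim-MJD arrays and 0 wild type arrays. Without wild type 1 there was 1 call in this list. The summed intensity of the glia markers was 4007 to 6579 on tim-MJD arrays and 8619 to 19818 on wild type arrays. Most of this sum is Gs2 on every array, so it mainly repeats that gene. The defining glial transcription factor, repo, was above the controls on no tim-MJD array and 1 wild type array.

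Neuron markers had a median of 0.04, with 0 of 5 passing in limma and 1 at an unadjusted p under 0.05. It was nSyb, a synaptic vesicle protein (1.63 ± 0.29 SE, limma adjusted p = 0.0578). Rdl, a GABA receptor subunit, differed by about as much the other way, with overlap of the groups (-1.63 ± 0.85 SE, limma adjusted p = 0.462). Rdl was above the controls on 3 wild type arrays and 2 tim-MJD arrays. Photoreceptor markers had a median of -0.03, with 0 of 6 passing in limma and 1 at an unadjusted p under 0.05, and a summed intensity of 467697 to 527257 on tim-MJD arrays and 431877 to 657247 on wild type arrays. Hemocyte markers had a median of -0.06, with 0 of 8 and 1 by the same counts, and muscle markers one of -0.14, with 0 of 6 and 1. The muscle marker was TpnC41C, a troponin C (-0.91 ± 0.15 SE, limma adjusted p = 0.0536), and without wild type 1 the muscle list had 1 call. Of the 6 muscle markers 2 were positive, the higher of them the gene up (0.55 ± 0.24 SE, limma adjusted p = 0.365). These 4 medians turned sign with an array left out, to -0.051 for neurons without wild type 1, 0.14 for photoreceptors without wild type 3, 0.10 for hemocytes without wild type 2 and 0.037 for muscle without tim-MJD 3.

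Gut markers were uneven between arrays, with a median of -0.97, 0 of 6 passing in limma and 1 at an unadjusted p under 0.05. It was LysP, a lysozyme, which read 5.09, 5.19 and 4.93 on tim-MJD 1, 2 and 3, against 9.61, 7.45 and 7.51 on wild type 1, 2 and 3 (-3.12 ± 0.62 SE, limma adjusted p = 0.0735). LysP was above the controls on 0 tim-MJD arrays, and its bound against the control level was -2.55. The trypsin betaTry differed by -2.28, the protease Jon65Aiv by -1.48 and the maltase Mal-A1 by -0.45, all with overlap. Among tim-MJD arrays, betaTry and Jon65Aiv were above the controls on 1 each and Mal-A1 on 0. Of the 6 gut markers, 1 was above the controls on all 6 arrays, so the sizes of these differences and the median are limited by the control level. The amylase Amy-d went the other way, also with overlap, at 12.00, 14.68 and 12.31 on tim-MJD 1, 2 and 3, against 11.91, 12.53 and 6.75 on wild type 1, 2 and 3. The gut median lay between -1.64 without wild type 3, where 2 of its genes passed, and -0.45 without wild type 1, where 1 passed. The part of these cell types in the Arc1 result was not tested.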

How the data were processed

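The authors deposited 1 linear intensity for each probe set and array. How probes were summarised, background corrected and normalized was not stated (not given in the sources used here), and arrays are of the DrosGenome1 type per the file headers. The number of arrays limits the precision.

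Of 14010 probe sets, 44 are array controls. The other 13966 were set to log2(intensity + 16) and quantile normalized, and controls were placed on each array's normalized scale by interpolation. A filter removed the 40% with the lowest mean over arrays and kept 8379. Groups were compared with limma 3.58.1 in R 4.3.3 (lmFit and eBayes, two-sided, Benjamini-Hochberg adjustment over all tested, threshold 0.05). Probe sets with 1 gene in the platform annotation numbered 12443, with several 327 and with none 1196. By gene identifier 12394 matched a current gene table. Genes of lists were taken by their brightest probe set. On simulated arrays with 8379 probe sets tested, 36% of changes of 0.5, 60% of 1, 84% of 2 and 96% of 4 log2 units were recovered. Of 152 calls 9.21% were false, more than the threshold of 0.05 aims at. Changes were placed only in probe sets with a mean above the median, and the noise was independent, with no shared effect of array or day. The recovery therefore does not hold for probe sets near control level.

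Arc1, the lists and the tests were chosen with earlier results of these data known. Named genes are Arc1, Arc2, 3 neighbours on each side, the 5 most alike in profile, up to 8 with the same detection pattern and up to 3 called members per list. Others are named as picked after their values were seen, including CG8547, Drs and CG15784. Settings varied were pseudocount, normalization, filter, variance model, blocks, detection level and leaving out each array. Figures used matplotlib 3.10.9 and pandas 2.3.3 in Python 3.11.15.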

Additional observations from a re-analysis of the deposited data

How the results depend on the processing

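The Arc1 difference of 9.15 stayed positive under every alternative run. With groups so far apart its sign could hardly change, so this adds no support. It was 9.92 with a pseudocount of 1 and 7.94 with one of 64, and 8.93 to 9.51 with each array left out. The number of probe sets past the threshold, 208, was 122 with median centring, 102 without the filter, where 13966 were tested, 387 with the lowest 60% left out, where 5586 were tested, and 88 to 200 with each array left out (88 without wild type 1, 117 without wild type 2, 112 without tim-MJD 3). Blocking on the fluidics module left 0 calls in limma, with 980 at an unadjusted p under 0.05, and the Arc1 difference was 8.89. Modules 3 and 4 held 1 array each, so this fit compared the groups within modules 1 and 2 alone. Little was left to estimate the spread, so no conclusion on the module is drawn from the loss of calls. Same-numbered arrays of the groups correlated by 0.29, 0.05 and 0.30 in their deviations from the group means, and wild type 2 correlated best with another number, so the numbers were not taken as pairs. With the replicate block 84 probe sets passed and the Arc1 difference stayed 9.15. The small difference of a second Shrm probe set turned sign to 0.012 with the values as deposited and ranged from -0.042 to 0.027 with each array left out (0.0076 without tim-MJD 2, 0.027 without wild type 3), and that of Tfb1 to 0.0049 with the module block. Apart from the added and left out probe sets and the few arrays that the module block leaves, the cause of these shifts was not tested. Arc1 in wild type heads and Tfb1 lie at control level, where the arrays give only a bound.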
